A study of Mus musculus with 96 samples.

Results

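The metallothioneins Mt1 and Mt2 and 8 other genes that glucocorticoid hormones are known to induce (Cdkn1a, Pdk4, Klf9, Klf15, Nfkbia, Ddit4, Plin4 and Errfi1) were described across the genotypes, treatments and brain regions of a mouse stress study. The 10 genes were chosen by symbol from a named list, with earlier results of these data known. Each of them was present among the 19918 genes counted and passed the filter on low counts in both regions. Polyadenylated RNA from punches of 2 brain regions of 48 mice, the prefrontal cortex (PFC) and the ventral striatum's nucleus accumbens (NAc), was sequenced in bulk, which gave 96 libraries. The mice belonged to the FCG model, in which the testis-determining gene Sry is missing from the Y chromosome (written Y-) and is carried instead as a transgene by some animals. XX mice and XY- mice have ovaries, and XXSry and XY-Sry mice have testes. Control mice were left unstressed, and Stress mice went through 3 restraint sessions of 1 hour each, held within 6 days. Each region held 5 XX Control, 6 XX Stress, 6 XXSry Control, 6 XXSry Stress, 7 XY- Control, 6 XY- Stress, 6 XY-Sry Control and 6 XY-Sry Stress animals, spread over 3 cohorts of 23, 12 and 13 animals. Strain, age and the time from the last session to tissue collection are not stated in the labels used here.

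Glucocorticoids, of which corticosterone is the main one in mice, are released from the adrenal cortex under stress and during the active phase of the day. They enter brain cells and bind the glucocorticoid receptor (Nr3c1) and the mineralocorticoid receptor (Nr3c2), which then act on genes as transcription factors. Metallothioneins are small cysteine-rich proteins that bind zinc and copper, and Mt1 and Mt2 are induced both by metals, through the transcription factor Mtf1, and by glucocorticoids. In the brain they are produced largely by astrocytes.

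Library totals ran from 67.6 to 104.4 M counts in the PFC and from 45.9 to 120.8 M in the NAc. Cortical excitatory neuron markers had a mean of 7.92 to 8.31 log2 CPM (counts scaled to the library total) in PFC libraries and 1.85 to 7.21 in NAc libraries. Striatal projection neuron markers had a mean of 7.01 to 8.45 in NAc libraries and 2.45 to 3.54 in PFC libraries, and no marker of either list was at 0. Levels below are CPM scaled jointly over all 96 libraries, and a gene is called changed when the adjusted p of the edgeR quasi-likelihood test is below 0.05 over all genes tested. In XY- Control, animals 16 and 19 stood apart from the other 46 animals in Plin4 and several other genes listed here, so results that rest on them are given with and without them. Cohort 3, to which both belonged, held 3 Control animals in all, and the third was an XY-Sry mouse.

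Mt1 (chromosome 8, 94179082 to 94180327, plus strand, GRCm38) and Mt2 (94172664 to 94173568, same chromosome and strand) are neighbours, with 5513 bases between the end of Mt2 and the start of Mt1. Because these 2 genes varied together between animals, the 250 bases before each RefSeq start site are shown, beside those of Plin4 (chromosome 17, 56100591 to 56109803, minus strand), the most variable of the 10 genes. Sequences are from RefSeq, build GRCm38.p6, strand of the gene. Capitals mark matches to the metal response element core, written TGCGCNC or TGCACNC, and to the spaced palindrome ACANNNTGT found in glucocorticoid receptor sites. Both strands were searched.
Mt1, chr8:94178839-94179088: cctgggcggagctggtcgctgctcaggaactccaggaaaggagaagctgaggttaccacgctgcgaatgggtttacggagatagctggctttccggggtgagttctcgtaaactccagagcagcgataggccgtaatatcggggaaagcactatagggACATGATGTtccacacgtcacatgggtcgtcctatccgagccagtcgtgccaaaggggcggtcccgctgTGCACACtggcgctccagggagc
Mt2, chr8:94172368-94172617: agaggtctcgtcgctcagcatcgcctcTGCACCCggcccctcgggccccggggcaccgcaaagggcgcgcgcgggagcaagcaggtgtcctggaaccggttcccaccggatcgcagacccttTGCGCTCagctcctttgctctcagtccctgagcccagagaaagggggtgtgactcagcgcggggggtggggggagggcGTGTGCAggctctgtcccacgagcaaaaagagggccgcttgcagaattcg
Plin4, chr17:56109783-56110032: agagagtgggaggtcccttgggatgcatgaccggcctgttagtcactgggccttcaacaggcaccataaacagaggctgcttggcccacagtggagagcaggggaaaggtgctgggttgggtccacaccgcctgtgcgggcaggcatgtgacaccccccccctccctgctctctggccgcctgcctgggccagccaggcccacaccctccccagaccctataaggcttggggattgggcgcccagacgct

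Mt2 held 3 matches to the metal core in this window, Mt1 held 1 match to it and 1 to the spaced palindrome, and Plin4 held none of these letters. Either form of the metal core was found before 5 of the 10 genes and before 21.4% of 32851 mouse start sites. The spaced palindrome was found before Mt1 alone among the 10 genes and before 5.84% of all start sites. The hexamer AGAACA that makes up each side of the classical glucocorticoid response element stood before none of the 10 genes and before 16.1% of all start sites. The counts depend on the start site used. The Mt1 window ended at 94179088, inside the gene coordinates given above (start 94179082). The Mt2 window ended at 94172617, before its start at 94172664. Sequence past these windows was not searched, so the counts do not rank Mt1 against Mt2 in metal response sites. A match in such a window is a description and does not show that a factor binds there.

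Per kb of exon sequence, Mt2, Mt1 and Klf9 had the highest levels of the 10 genes in both regions. In the PFC the mean level per kb was 39.97 ± 5.05 CPM for Mt2, 39.03 ± 3.97 for Mt1 and 31.8 ± 2.11 for Klf9 (SD, n = 48). In the NAc it was 69.1 ± 11.6 for Mt2, 60.1 ± 7.49 for Mt1 and 31.1 ± 3.18 for Klf9. The gap between Mt2 and Mt1 was below either SD in the PFC. In the NAc it was above the SD of Mt1 and below that of Mt2. Their order per kb rests on the length used, all annotated exons joined, 1246 bases for Mt1 and 588 for Mt2. The Mt1 length equals its whole gene span, so no intron was left out. In counts not divided by length Mt1 was higher, with medians of 3763.5 against 1799.5 (PFC) and 5860 against 3048.5 (NAc). The values per kb therefore do not rank Mt1 against Mt2. Ddit4 followed Klf9 per kb, at 9.60 ± 1.31 in the PFC and 10.9 ± 1.34 in the NAc. Nfkbia (7.94 ± 1.03) and Errfi1 (7.46 ± 0.330) followed in the PFC, and Errfi1 (6.79 ± 0.551) and Nfkbia (6.28 ± 0.971) in the NAc. The gap between these 2 genes was below the SD of Nfkbia in both regions, and in the PFC above that of Errfi1. Klf15, Cdkn1a and Pdk4 lay between 2.43 and 5.30 CPM per kb in the 2 regions. Plin4 was the lowest, at 0.162 ± 0.184 in the PFC against 0.412 ± 0.556 in the NAc, with 22 to 512 counts per PFC library and 48 to 1338 per NAc library. The reads of Mt1 and Mt2 may not be fully separable, because their sequences are alike and the treatment of reads that match both is not stated in the labels.

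The genes also differed in how much they varied between animals. Errfi1, an inhibitor of the epidermal growth factor receptor, had the lowest coefficient of variation, 4.42% in the PFC and 8.11% in the NAc. Klf9, a zinc finger transcription factor that responds to glucocorticoid and thyroid hormone, followed at 6.65% and 10.2%. Plin4, a perilipin that coats lipid droplets, had 113.5% (PFC) and 135.1% (NAc), and 51.2% and 41.7% without animals 16 and 19.

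**Figure D1:**
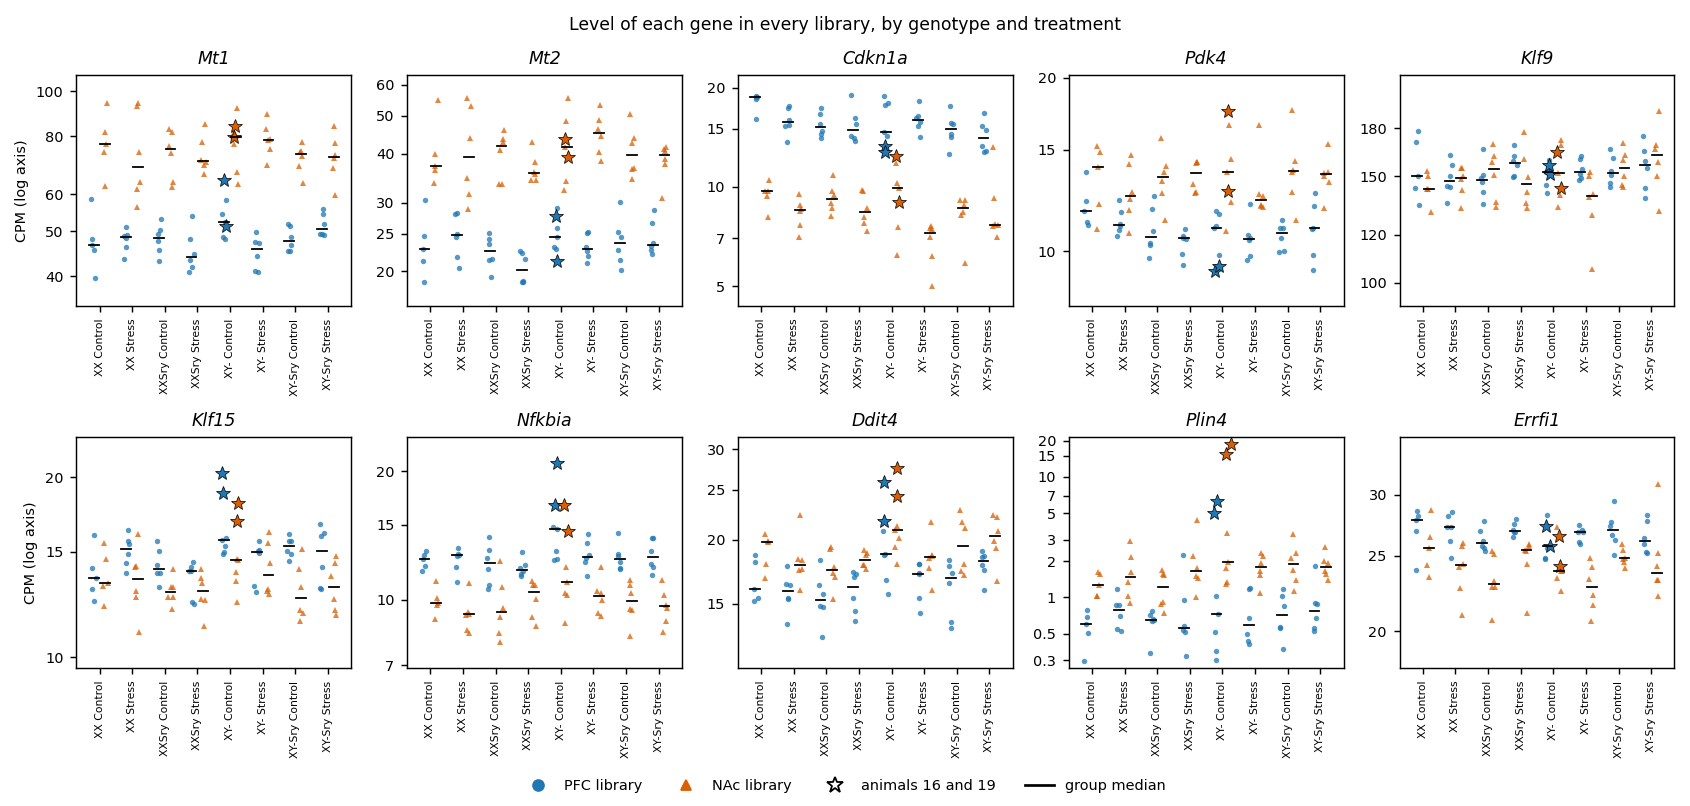
Level of each of the 10 genes (CPM, log axis) in every PFC library (blue circles) and NAc library (orange triangles), by genotype and treatment, with black lines at group medians and stars at animals 16 and 19. The starred animals lie far above all others in Plin4, at 6.27 and 4.97 CPM in PFC libraries and 15.6 and 18.8 in NAc libraries. Errfi1 varies least of the 10 genes relative to its level. Klf9 spreads more in the NAc, for example from 105.3 to 152.1 CPM within XY- Stress.

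Between the regions, 9 of the 10 genes differed within animals, 5 of them higher in the NAc and 4 lower. Of all 19918 genes, 85.9% were called in this comparison (44% higher in the NAc and 41.9% lower), so the members' share is close to that of all genes. The test kept the animal as a block. In bulk tissue, fewer cells of a type and less RNA per cell cannot be told apart. Markers of cell types differed as well. All 5 oligodendrocyte markers were called higher in the NAc (mean 8.29 to 9.44 log2 CPM against 5.82 to 7.22 in the PFC), and of 7 astrocyte markers 2 were called higher and 4 lower, with a mean of 6.65 to 7.41 in the NAc and 6.95 to 7.56 in the PFC. None of these markers was at 0. The part of these differences in the results was not tested.

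Both metallothioneins were higher in the NAc in every animal. Mt1 ranged from 39.8 to 64.3 CPM in the PFC (median 48.4) and from 56.5 to 94.4 in the NAc (median 74.2). Mt2 ranged from 18.8 to 30.4 CPM in the PFC (median 22.98) and from 28.8 to 55.4 in the NAc (median 40.2). The ranges of the regions overlapped at their edges for both genes, but within animals the NAc exceeded the PFC in 48 of 48 for each. The log2 fold change was 0.63 for Mt1 (95% CI 0.57 to 0.69, adjusted p = 9.42e-24) and 0.78 for Mt2 (0.71 to 0.84, adjusted p = 5.97e-27).

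Among the genes that restrain growth, Cdkn1a, which encodes the cyclin-dependent kinase inhibitor p21, showed the opposite pattern. Its level ran from 12.6 to 19.1 CPM in the PFC (median 15.5) and from 5.01 to 13.2 in the NAc (median 8.61), and it was lower in the NAc in all 48 animals. Its log2 fold change was -0.85 (95% CI -0.94 to -0.76, adjusted p = 2.40e-22), and the median ratio of NAc to PFC was 0.535. Ddit4, an inhibitor of the mTORC1 growth pathway also known as Redd1, was higher in the NAc in 46 of 48 animals, by 0.19 on the log2 scale (0.15 to 0.24). Errfi1 was lower in the NAc in 45 of 48 animals, with a log2 fold change of -0.15 (-0.19 to -0.10).

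Of the genes of fuel and lipid use, Plin4 differed the most between regions. It ranged from 0.296 to 6.27 CPM in the PFC (median 0.663) and from 0.739 to 18.8 in the NAc (median 1.63), and each animal had more in the NAc. The log2 fold change was 1.28 (95% CI 1.13 to 1.43, adjusted p = 1.13e-20), and 1.27 without animals 16 and 19. Plin4 overlaps Hdgfl2 on the opposite strand, and whether counting used strand is not given in the sources used here. Pdk4, a kinase that switches off the pyruvate dehydrogenase complex, was higher in the NAc in 45 of 48 animals (log2 fold change 0.32, 0.25 to 0.38).

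The transcription factors and the NF-kB inhibitor leaned towards the PFC or did not differ. Nfkbia, which encodes the inhibitor that holds NF-kB in the cytoplasm, was lower in the NAc in all 48 animals, at 10.6 to 20.97 CPM in the PFC (median 12.5) against 7.93 to 16.7 in the NAc (median 9.91). Its log2 fold change was -0.34 (95% CI -0.38 to -0.29, adjusted p = 1.18e-18). Klf15, a regulator of amino acid and glucose metabolism, was lower in the NAc in 41 of 48 animals, with a log2 fold change of -0.11 (-0.17 to -0.06). Klf9 did not pass the test, with a log2 fold change of -0.04 (-0.08 to 0.00, adjusted p = 0.081), and was higher in the NAc in 20 of 48 animals.

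For restraint stress, the edgeR test called none of the 10 genes in either region, and no other gene. For stress minus control over the 4 genotypes, 0 of 10 members were called in the PFC and 0 of 10 in the NAc, against 0% of 19292 genes in the PFC and 0% of 19684 in the NAc. At an unadjusted p under 0.05, 0 of 10 members passed in either region, where 5.73% of all PFC genes and 4.59% of all NAc genes did. DESeq2 called 2 genes in each region and limma-voom 0, and none of these was a member. The members' median log2 fold change was -0.05 in the PFC and -0.04 in the NAc, against -0.00041 and 0.0016 over all genes tested. The interaction of stress and region called 0 of 10 members and 0% of all genes, and the members lay between -0.09 and 0.05 on the log2 scale.

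Mt1 and Mt2 had like levels with and without stress. Mt1 was 39.8 to 64.3 CPM in PFC Control libraries (median 48.6) and 40.8 to 55.8 in PFC Stress libraries (median 48.2), and the groups overlapped over most of their range. In the NAc, Mt1 was 62.3 to 94.3 in Control (median 75.3) and 56.5 to 94.4 in Stress (median 73.4). The log2 fold change of Mt1 was -0.08 in the PFC (95% CI -0.16 to 0.00) and -0.02 in the NAc (-0.14 to 0.10). That of Mt2 was -0.06 (-0.17 to 0.05) and -0.02 (-0.17 to 0.14).

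The other members had narrow intervals too, with Plin4 as the exception. Klf9 was at 0.02 in the PFC (-0.04 to 0.08) and -0.01 in the NAc (-0.10 to 0.08), and Errfi1 at 0.01 (-0.04 to 0.05) and -0.03 (-0.11 to 0.04). Cdkn1a was at -0.04 in the PFC and -0.14 in the NAc (-0.28 to 0.01). Plin4 was at -0.19 in the PFC (-0.79 to 0.42) and -0.21 in the NAc (-0.73 to 0.32). Without animals 16 and 19, Plin4 was at 0.46 in the PFC (SE 0.23, unadjusted p = 0.051) and 0.50 in the NAc (SE 0.17, unadjusted p = 0.0049), with edgeR adjusted p of 0.80 and 0.56, so the direction depended on those 2 animals. Within cohorts 1, 2 and 3, the Plin4 value was 0.75, 0.16 and -2.30 in the PFC, against 0.70, 0.09 and -2.31 in the NAc. Animals 16 and 19 are 2 of the 3 Control animals of cohort 3.

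Within single genotypes, stress called 0 of 10 members in XX, XXSry, XY- and XY-Sry mice in both regions by edgeR, and 0% of genes in each of these 8 comparisons. DESeq2 called 1 member, Mt1 in the PFC of XY- mice, and limma-voom 0. Unadjusted p was under 0.05 for 5 members in XY- mice in each region, where 9.13% of PFC genes and 4.45% of NAc genes passed, and for 0 members in the other 3 genotypes. With animals 16 and 19 left out, 1 member in each region had such a p in XY- mice, Mt1 in the PFC and Cdkn1a in the NAc. There was then also 1 such member in the NAc of XXSry mice and 1 in the PFC of XY-Sry mice. With all animals, the 5 members in the PFC of XY- mice were Mt1 (log2 fold change -0.27), Klf15 (-0.22), Nfkbia (-0.23), Ddit4 (-0.25) and Plin4 (-1.36), with adjusted p from 0.22 to 0.41. In the NAc they were Plin4 (-1.69), Cdkn1a (-0.45), Ddit4 (-0.23), Nfkbia (-0.22) and Klf9 (-0.17), each with adjusted p of 1.00. With animals 16 and 19 left out, Ddit4, Nfkbia and Klf9 in the NAc lay at -0.06, 0.03 and -0.13.

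Mt1 in the PFC of XY- mice was 48.1, 48.7, 51.4, 52.3, 54.4, 58.3 and 64.3 CPM in the 7 Control animals and 40.9, 41, 44.2, 47.2, 47.5 and 49.9 in the 6 Stress animals. In 5 of the 6 Stress animals Mt1 was below every Control animal, and the sixth, at 49.9, lay among them. The edgeR adjusted p was 0.22, while DESeq2, with the same log2 fold change of -0.27, gave 0.0455 and called 28 genes in all. Without animals 16 and 19 the log2 fold change was -0.22 (adjusted p = 0.84 with edgeR). In the NAc of the same mice Mt1 had a log2 fold change of 0.01.

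Cdkn1a in the NAc of XY- mice was 6.21, 7.54, 9.001, 9.92, 10.3, 11.8 and 12.4 CPM in the Control animals and 5.01, 6.17, 7.05, 7.48, 7.49 and 7.62 in the Stress animals, with the groups overlapping between 6.21 and 7.62. Without animals 16 and 19 its log2 fold change was -0.34 (adjusted p = 1.00). In the PFC it was at 0.04.

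Plin4 in the PFC of XY- mice was 0.301, 0.360, 0.516, 0.727, 1.03, 4.97 and 6.27 CPM in Control and 0.406 to 1.18 in Stress. In the NAc it was 1.30, 1.35, 1.77, 1.95, 3.40, 15.6 and 18.8 in Control and 1.09 to 2.32 in Stress. The 2 highest values in each region are those of animals 16 and 19, and the other 5 Control animals overlapped with the Stress animals. The log2 fold change was -0.84 in the PFC without animal 16 alone and -1.17 in the NAc without animal 19 alone. Without both animals it turned to 0.46 in the PFC and 0.27 in the NAc. Klf15, Nfkbia and Ddit4 in the PFC then lay at -0.09, -0.04 and -0.09.

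**Figure D2:**
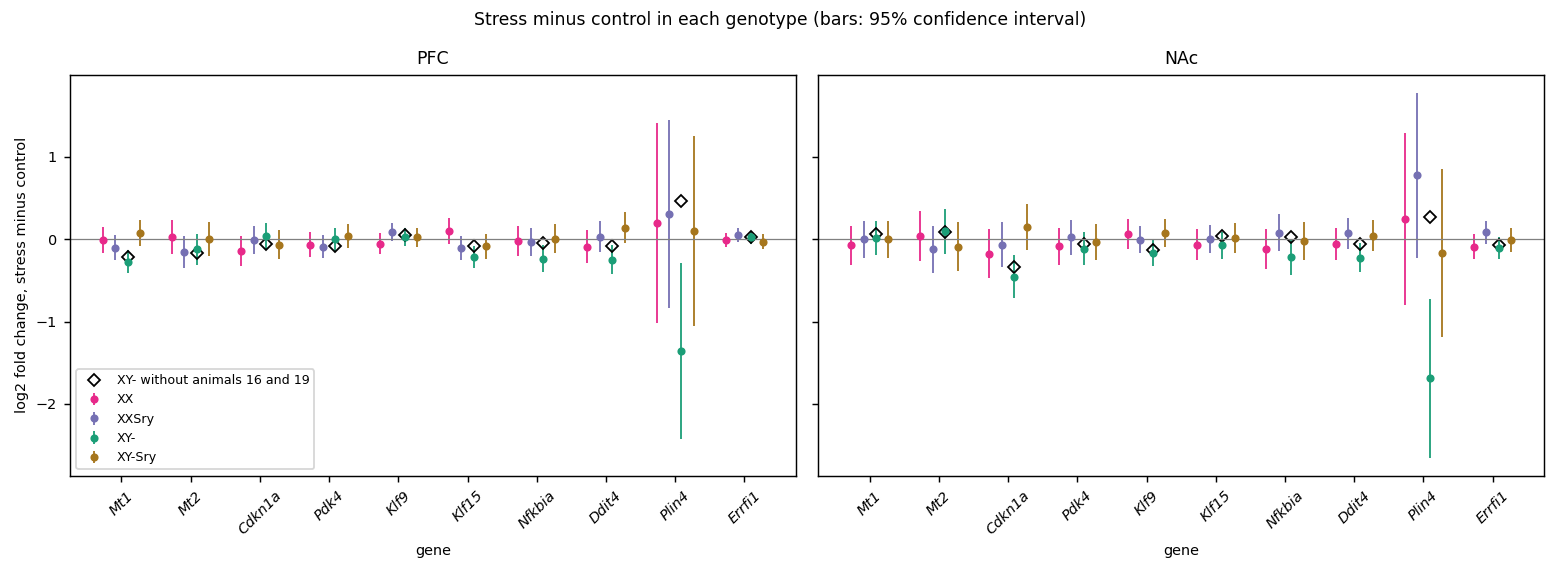
Log2 fold change of stress minus control for each gene in each genotype, PFC on the left and NAc on the right, with 95% confidence intervals. Open diamonds give XY- mice without animals 16 and 19. The Plin4 value in XY- mice moves from -1.36 to 0.46 in the PFC and from -1.69 to 0.27 in the NAc, while the other genotypes lie close to 0 for most genes.

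For sex chromosomes and gonads, the edgeR test called no member either. So few genes were called that 0 of 10 does not set the members apart from other genes or show that they did not change. For XX minus XY, over both gonad types, 0 of 10 members were called in each region, against 1.12% of PFC genes and 0.584% of NAc genes. For testes minus ovaries, 0 of 10 were called in each region, against 0.0467% and 0.0102% of genes. DESeq2 and limma-voom called 0 members in all 4 comparisons. Beside the members, the astrocyte marker Gja1 (-0.10) and the striatal marker Drd2 (-0.65) were called lower with XX in the PFC, and their part in the results was not tested.

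The members nearest to the threshold in the chromosome comparison were Klf15, Ddit4 and Nfkbia, all lower in mice with XX. In the PFC, Klf15 was at -0.10 (95% CI -0.18 to -0.03, adjusted p = 0.18), Ddit4 at -0.13 (-0.22 to -0.03, adjusted p = 0.22) and Nfkbia at -0.10 (-0.19 to -0.01, adjusted p = 0.32). They were the 3 members with an unadjusted p under 0.05 there, as had 11.6% of all PFC genes, and without animals 16 and 19 they were at -0.09, -0.11 and -0.08. In the NAc, where 5.97% of all genes had such a p, the 2 such members were Ddit4 at -0.11 (adjusted p = 0.68) and Plin4 at -0.60 (adjusted p = 0.73), and Plin4 was at -0.35 without the 2 animals. Mt1 was at -0.07 in the PFC (-0.15 to 0.01) and -0.01 in the NAc (-0.13 to 0.10).

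For gonads, Cdkn1a in the PFC had a log2 fold change of -0.13 in testes against ovaries (95% CI -0.22 to -0.05, adjusted p = 0.43), the 1 member there with an unadjusted p under 0.05, as had 6.74% of all PFC genes. Of the 8 groups, XX Control mice had the highest mean Cdkn1a in the PFC, with single values of 16.1, 18.5, 18.8, 18.8 and 18.8 CPM. XY-Sry Stress mice had the lowest mean, 14.3 ± 1.60 (SD, n = 6), with a highest value of 16.7. These 2 groups were picked as extremes and also differ in chromosomes and treatment, so they do not show a gonad difference alone. In the NAc, Klf15 was at -0.10 (-0.19 to -0.02, adjusted p = 0.51) and Klf9 at 0.08 (0.00 to 0.17, adjusted p = 0.54).

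The interactions of stress with chromosomes, of stress with gonads and of chromosomes with gonads called 0 of 10 members in each region and 0% of genes in each of the 6 comparisons. Unadjusted p was under 0.05 for Klf15 (stress by chromosome, 0.15), Ddit4 (stress by gonad, 0.25) and Pdk4 (chromosome by gonad, -0.18) in the PFC. In the NAc it was under 0.05 for Plin4 (1.44 for stress by chromosome and 1.02 for stress by gonad), Cdkn1a (0.35) and Ddit4 (0.20) in stress by gonad, and Nfkbia (0.26) in chromosome by gonad. Without animals 16 and 19, Plin4 lay at 0.53 and 0.16 in these NAc comparisons, Ddit4 in the PFC at 0.18 and Klf15 at 0.09. Cohort called 0 of 10 members, against 0.181% of PFC genes and 0% of NAc genes, and Cdkn1a in the PFC was the 1 member with an unadjusted p under 0.05 (adjusted p = 0.41). Cohort called 35 genes in the PFC, and 1 without animals 16 and 19.

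Animals 16 and 19 of XY- Control had the 2 highest levels of 4 members in both regions, namely Plin4, Nfkbia, Ddit4 and Klf15. Nfkbia was 20.97 and 16.7 CPM in their PFC, where the other 46 animals ranged from 10.6 to 14.8, and 16.7 and 14.5 in their NAc, where the others ranged from 7.93 to 12.3. Ddit4 was 25.95 and 21.7 in the PFC (others 12.9 to 20.8) and 27.6 and 24.4 in the NAc (others 15.3 to 22.9). Klf15 was 20.3 and 18.8 in the PFC (others 12.3 to 16.7) and 16.9 and 18.1 in the NAc (others 11.02 to 16.2). For Plin4 their values were 9.64 and 7.65 times the median of the others in the PFC, and 9.75 and 11.8 times in the NAc. The third Control animal of cohort 3 had Plin4 at 1.17 CPM in the PFC and 1.40 in the NAc, within the range of the other animals.

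The metallothioneins did not share this pattern. Mt1 of animal 16 was the highest of 48 in the PFC (64.3 CPM) and had rank 14 in the NAc, and that of animal 19 had ranks 12 and 7. For Mt2, animals 16 and 19 had ranks 7 and 39 in the PFC, and in the NAc they had ranks 15 and 26. Cdkn1a was 13.3 and 12.8 CPM in their PFC, among the lowest, and 9.001 and 12.4 in their NAc, where the others ranged from 5.01 to 13.2. Pdk4, Klf9 and Errfi1 lay within the range of the other animals except for Pdk4 of animal 16 in the PFC, which was the lowest of all at 9.24 CPM.

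Of 18 other glucocorticoid-induced genes, 7 were above all other animals in both regions of both mice, and none was below. These were Fkbp5 (a co-chaperone that dampens receptor signalling), Tsc22d3 (also known as Gilz), Sgk1 (a kinase), Sult1a1, Hif3a, Arrdc2 and Rasd1. Sgk1 was 121.2 and 118.5 CPM in their NAc, where the others ranged from 41.5 to 89.4, and Hif3a was 19.96 and 14.4 in their PFC, where the others ranged from 4.08 to 8.08. Per1, Dusp1, Zbtb16 and Mertk were not outside the other animals in both regions. Over 14001 genes with a mean of at least 0 log2 CPM in both regions, 0.379% were above and 0.407% below all other animals in both regions. Of the 53 genes above, 43 were in none of the lists used here, among them Xdh, Edn1 and Slc2a1, and 57 genes were below. The 2 animals thus differed from the others in many genes outside the lists as well. These counts were made after the values of the 2 animals were seen, with lists chosen when earlier results of these data were known.

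No gene of the metallothionein and metal list (5 genes), of the p53 list (9) or of the NF-kB list (8) was above or below in both regions. With 0.379% of all genes above and 0.407% below, this does not set these short lists apart from other genes. The p53 list gene Trp53inp1 was above the others in the PFC alone, at 20.9 and 21.2 CPM (others 14.6 to 18.96). The glucocorticoid receptor gene Nr3c1 was 96.3 and 107.1 CPM in the NAc of the 2 mice, below the other animals (107.7 to 162.6), and 97.3 and 116.5 in the PFC, where the others ranged from 112.5 to 148.5. Hdgfl2, which overlaps Plin4 on the opposite strand, was 78.1 and 72.5 CPM in their PFC (others 63.1 to 79.7) and 60.2 and 64.9 in their NAc (others 39.7 to 65.3). Astrocyte markers had a mean of 6.98 and 6.95 log2 CPM in the PFC (others 7.02 to 7.56) and 6.65 and 6.81 in the NAc (others 6.80 to 7.41). Endothelial markers had 4.76 and 4.84 in the PFC (others 4.49 to 5.01) and 4.51 and 4.61 in the NAc (others 4.37 to 4.66). Microglial markers in the NAc had 4.23 and 4.29 (others 4.31 to 5.07). The part of cell makeup in these values was not tested.

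**Figure D3:**
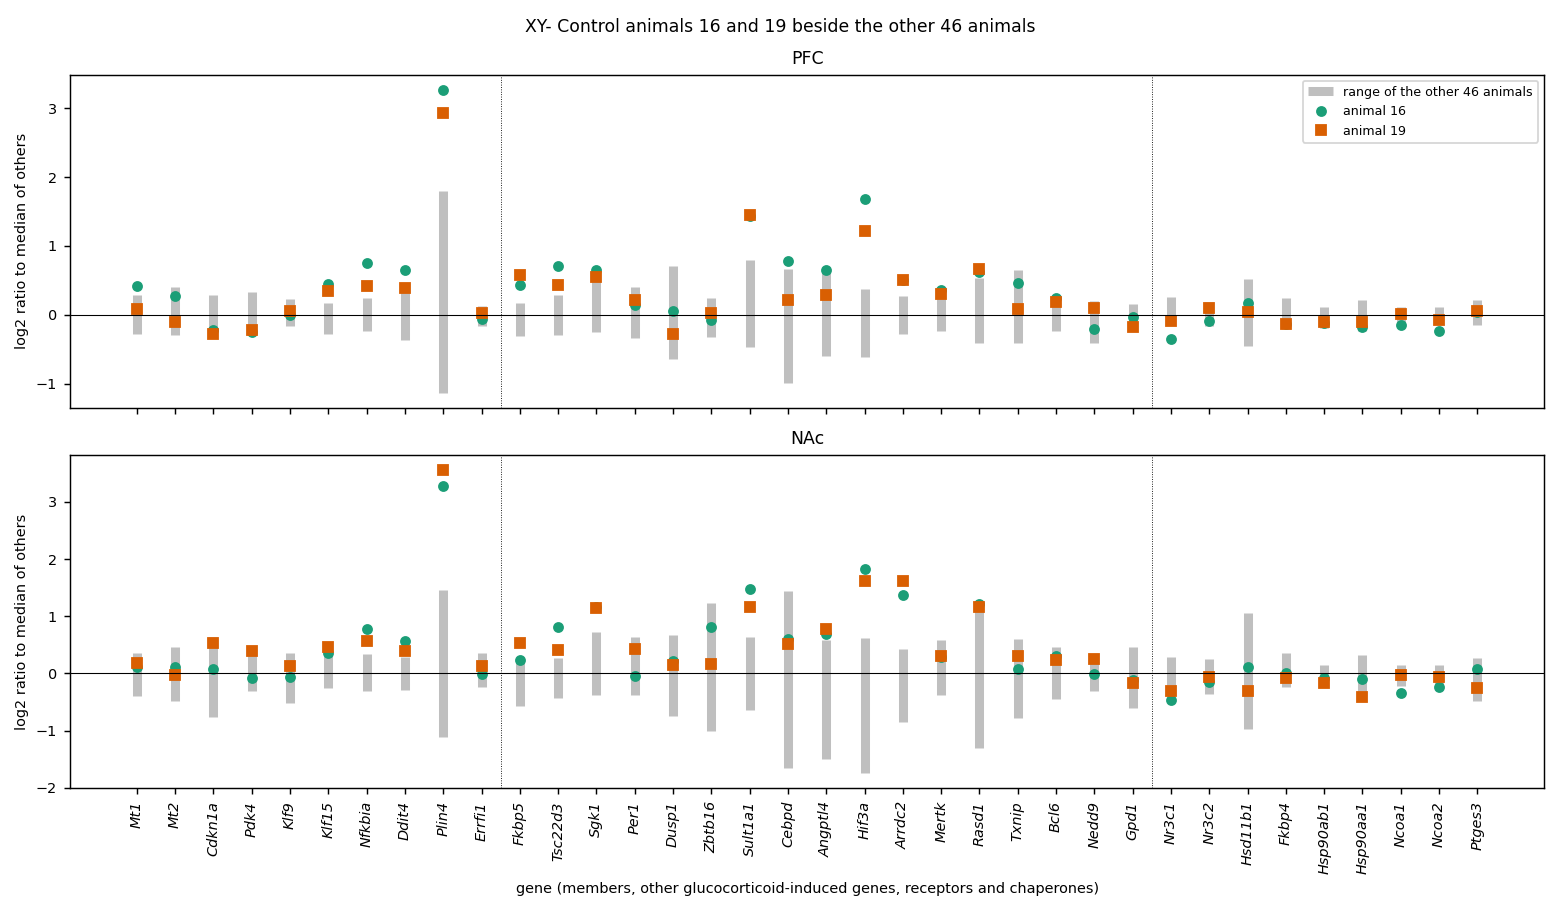
Level in animals 16 and 19 relative to the median of the other 46 animals (log2), for the 10 genes, other glucocorticoid-induced genes and receptors with chaperones, PFC above and NAc below, with grey bars for the range of the other animals. Both animals lie above the bars for Klf15, Nfkbia, Ddit4 and Plin4 and for Fkbp5, Tsc22d3 and Sgk1 in both regions, and Nr3c1 lies below the bar in the NAc.

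Whether an animal with a high level in the PFC also had a high level in the NAc was asked with deviations, the log2 CPM of each library minus its group and cohort terms. Of 10 relations over 48 animals, 5 passed after adjustment over the 10. Plin4 had Pearson's r = 0.84 and Spearman's rho = 0.77, Nfkbia 0.70 and 0.64, and Ddit4 0.68 and 0.65, each with a permutation p of 1e-05, the smallest the draws can give (adjusted p = 3.33e-05). Mt2 had r = 0.53 and rho = 0.44 (permutation p = 0.00011, adjusted p = 0.000275), and Klf9 had 0.41 and 0.42 (permutation p = 0.00388, adjusted p = 0.00776). Over 14001 genes the median r was 0.089, with a 5th to 95th percentile range of -0.20 to 0.42. Punches of a mouse share the animal, its cohort and its collection.

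All 5 relations also passed without animals 16 and 19. Without them r was 0.66 for Plin4, 0.50 for Nfkbia, 0.56 for Ddit4, 0.53 for Mt2 and 0.40 for Klf9. Without the 2 animals farthest from the PFC median of each gene, r was 0.66, 0.58, 0.63, 0.44 and 0.44. Within cohort 1 (23 animals), Plin4 had r = 0.67, Nfkbia 0.71, Mt2 0.67 and Klf9 0.51, while Ddit4 had 0.15. Within cohort 2 (12 animals), Plin4 had 0.86, Ddit4 0.93, Mt2 0.635, Nfkbia 0.62 and Klf9 0.07. Within cohort 3 (13 animals), Ddit4 had 0.70, Plin4 0.55, Klf9 0.34, Nfkbia 0.30 and Mt2 0.23. Each cohort held at least 1 group with 1 animal, whose deviation is 0 once the group terms are refitted. The r values of single cohorts are therefore a description, given without a test.

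The remaining 5 genes did not pass over all 48 animals. Mt1, the neighbour of Mt2, had r = 0.22 and rho = 0.14 between the regions (adjusted permutation p = 0.24). Within cohorts 1, 2 and 3 the r of Mt1 was 0.34, 0.65 and 0.20. Whether Mt1 and Mt2 differ in this relation was not tested. Klf15 had r = 0.18, and -0.03 without animals 16 and 19. Pdk4 (0.12), Errfi1 (-0.01) and Cdkn1a (-0.17) had no relation that passed.

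**Figure D4:**
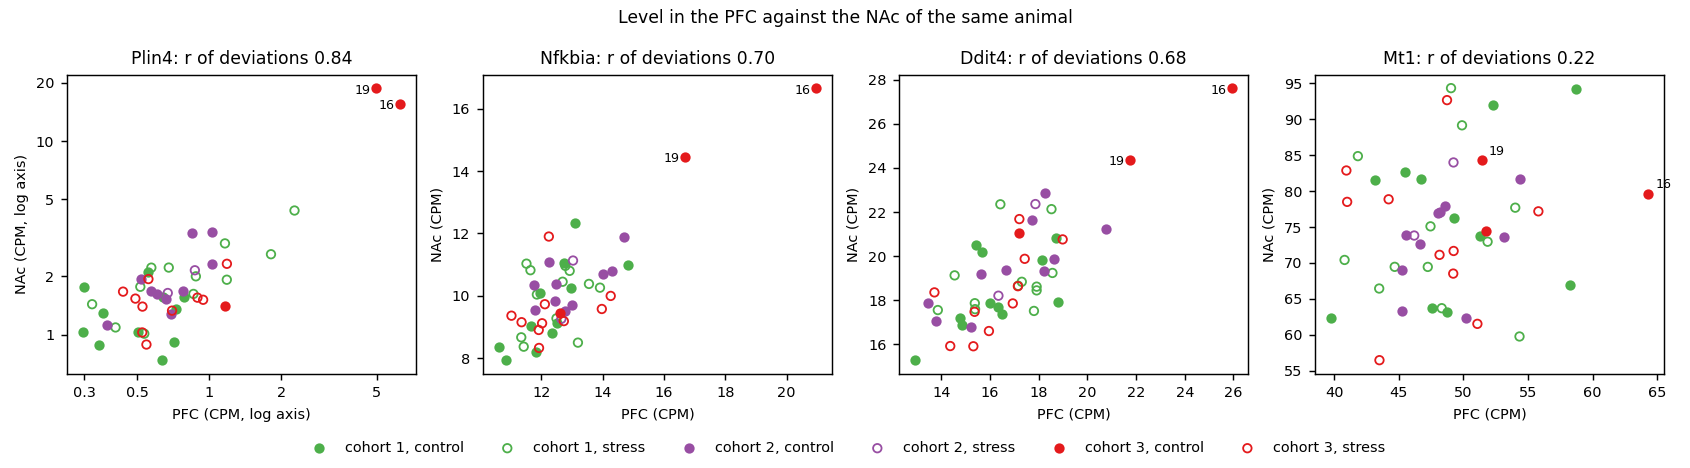
Level in the PFC (x axis) against the NAc (y axis) of the same animal, in CPM, for Plin4 (log axes), Nfkbia, Ddit4 and Mt1, with colours for cohorts, filled points for Control and open points for Stress. Animals 16 and 19 lie at the upper right for Plin4, Nfkbia and Ddit4, and the remaining animals also rise together there, while Mt1 shows a cloud (r = 0.22).

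Within a region, pairs of the 10 genes were compared by the same deviations. Of 45 pairs of genes, 19 passed in the PFC (15 positive, 4 negative) and 18 in the NAc (16 positive, 2 negative), by permutation of Pearson's r adjusted over the 90 pairs. There were 14 pairs that passed in both regions, all of them positive in both. By Spearman's rho, 14 pairs passed in the PFC and 12 in the NAc. Without animals 16 and 19, 12 pairs passed in each region. Without the 2 libraries farthest from the median of the first gene, 9 passed in the PFC and 10 in the NAc. The pairs that passed in both regions under each of these 4 settings were Mt1 with Mt2, Mt1 with Klf15, and Nfkbia with Ddit4.

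Many genes outside the list varied together as well. Over all 98007000 pairs of 14001 genes, r had a median of -0.0025 in the PFC (5th to 95th percentile -0.42 to 0.43) and -0.0033 in the NAc (-0.54 to 0.55). The smallest absolute r that passed among members was 0.374 in the PFC, and 14.8% of all gene pairs were at or past it, against 42.2% of the member pairs. In the NAc it was 0.336, and 31.9% of all gene pairs were at or past it, against 40% of the member pairs. With animals 16 and 19 left out, 26.7% of the member pairs passed in each region, where 17.1% of all gene pairs in the PFC and 28.4% of those in the NAc were at or past the smallest r that passed. The members' share in the NAc was then no higher than that of all genes. These shares are a description with no test.

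The metallothioneins were the closest pair in the NAc. In the PFC they came after Nfkbia with Ddit4 by Pearson's r over all animals (0.67 against 0.69). By rho (0.68 against 0.62) and by r without animals 16 and 19 (0.71 against 0.55) the metallothioneins came first. Mt1 and Mt2 had r = 0.67 in the PFC and 0.89 in the NAc (rho 0.68 and 0.83), and 0.71 and 0.90 without animals 16 and 19. Klf15 varied with both of them in both regions, with r of 0.56 and 0.53 for Mt1 and 0.45 and 0.43 for Mt2, and these 4 values also passed without the 2 animals. For Mt2 with Klf15, neither value passed without the 2 farthest libraries (adjusted permutation p = 0.0796 for PFC libraries and 0.0945 for NAc libraries), and by rank the NAc value did not (0.0725). Pdk4 with Mt2 had r = 0.41 in the PFC, which passed neither by rank nor without the 2 farthest libraries (adjusted permutation p = 0.0548 and 0.101), and 0.47 in the NAc, which passed both. Errfi1 ran against Mt1 in the NAc (r = -0.45).

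Among Plin4, Nfkbia, Ddit4 and Klf15, the members in which animals 16 and 19 were highest, all 6 pairs passed in both regions. Without these 2 animals, 2 of the 6 pairs passed in each region, and Nfkbia with Ddit4 was the 1 pair that passed in both. Nfkbia and Ddit4 had r = 0.69 (PFC) and 0.58 (NAc), and 0.55 and 0.39 without animals 16 and 19. Nfkbia and Plin4 had 0.67 and 0.48, and 0.41 and 0.01 without them, and the NAc value then no longer passed (adjusted permutation p = 0.961). Klf15 and Plin4 had 0.57 and 0.46, and 0.33 and 0.25 without them, and this pair no longer passed in either region. Klf15 with Nfkbia (0.30 and 0.16) and Ddit4 with Plin4 (0.26 and 0.28) also passed in neither region without them, and Klf15 with Ddit4 passed in the NAc (0.44) but not in the PFC (0.23). In the PFC, Cdkn1a ran against all 4 of these genes, with r from -0.44 to -0.38, and none of these 4 relations passed without animals 16 and 19. Klf9 and Errfi1 passed in both regions (0.38 and 0.58), and without the 2 animals (0.38 and 0.56). In the PFC this pair did not pass by rank (adjusted permutation p = 0.0863) or without the 2 farthest libraries (r = 0.26, adjusted permutation p = 0.193), and within cohort 2 its r was -0.009.

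**Figure D5:**
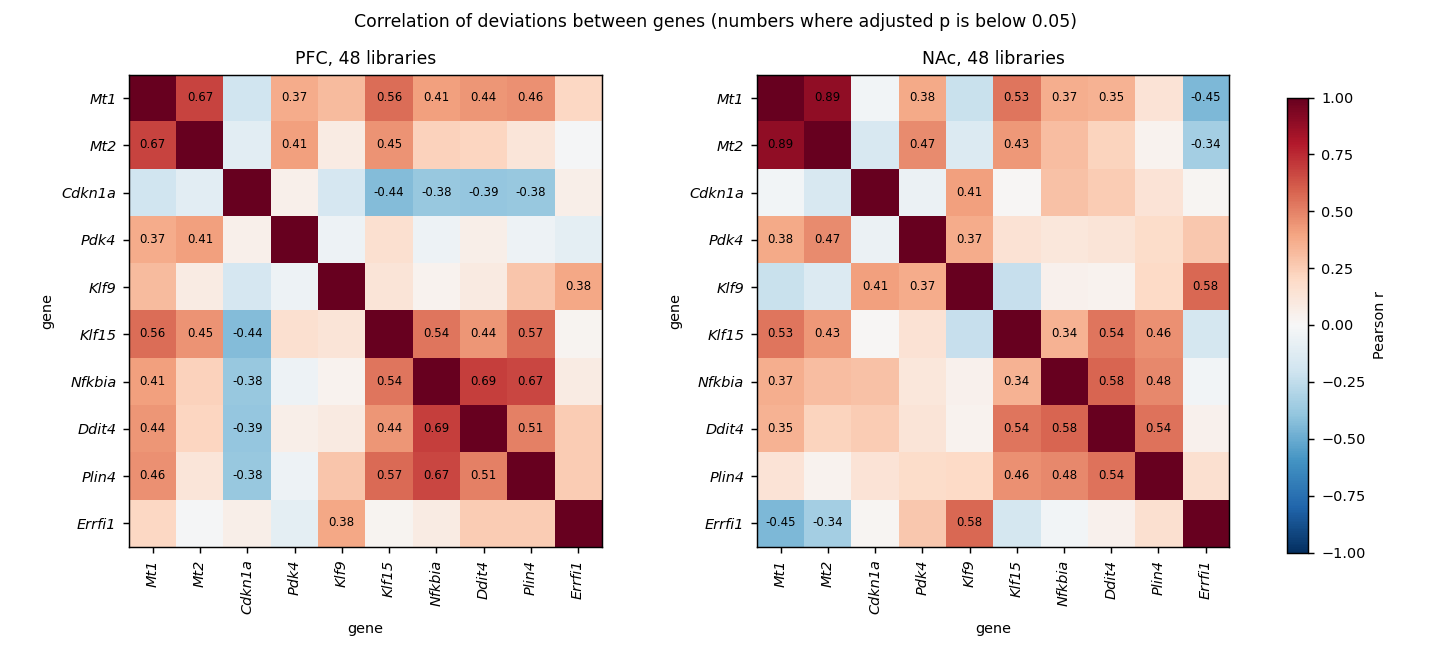
Pearson's r of the deviations of each pair of genes over 48 libraries, PFC on the left and NAc on the right, red for positive and blue for negative, with numbers where the adjusted permutation p is below 0.05. Mt1 with Mt2 (0.67 and 0.89) and the block of Klf15, Nfkbia, Ddit4 and Plin4 carry numbers in both regions, as does the blue row of Cdkn1a in the PFC, but without animals 16 and 19, 2 of the 6 pairs of that block passed in each region and none of the 4 negative pairs of Cdkn1a.

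The genes most like each member were found among 14000 others (14001 for Plin4) by the mean r of deviations over 48 libraries in each of the 2 regions, as a description. Plin4 was most like Sgk1 (0.79) and Sult1a1 (0.73), and Nfkbia was most like Ddit4 (0.64) and Sgk1 (0.60). Without animals 16 and 19, Plin4 with Sgk1 had r = 0.54 (PFC) and 0.60 (NAc), and Nfkbia with Sgk1 had 0.50 and 0.11. Ddit4 was most like Pim3 (0.66), and Klf15 was most like Prodh (0.65), the enzyme that begins proline breakdown, and Idh2 (0.64). Apart from each other, Mt1 was most like Rps16 (0.68) and Mt2 most like Gstm1 (0.63). Klf9 was most like Atp2b1 (0.80) and Rbfox1 (0.77), Pdk4 like the astrocyte glutamate transporter gene Slc1a3 (0.63) and Sft2d2 (0.63), Cdkn1a like Cacng3 (0.57) and Ubtf (0.56), and Errfi1 like Ubr3 (0.56) and Nampt (0.55).

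The lists of related genes were counted in the same fits. Among 18 other glucocorticoid-induced genes, 0 were called for stress in either region over all genotypes or within any genotype, and the same held for the markers of every cell type list. For XX minus XY, Mertk (-0.14) and Txnip (-0.23) were called lower in the PFC and Lcn2 (-3.49, at levels of 0 to 0.905 CPM) lower in the NAc, with list medians of -0.09 and -0.10 against 0.00094 and -0.00021 over all genes tested. The metallothionein and metal list, the receptors and chaperones (9 genes), the paralogs of the members (15), and the p53 (9), NF-kB (8) and clock (9) lists had 0 called for stress, chromosomes or gonads in either region. In the fatty acid oxidation list (7 genes), Ucp2 was called lower with XX in the PFC (-0.19).

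Between regions most genes of each list differed, as most genes overall did. Of the metal list, Slc30a10 (0.53), Mtf1 (0.29) and Slc30a1 (0.22) were higher in the NAc, while Mt3, the brain-enriched metallothionein, was lower (-0.14). Of the other glucocorticoid-induced genes, 6 were higher in the NAc, among them Fkbp5 (0.71) and Sgk1 (0.57), and 9 were lower, among them Zbtb16 (-2.65) and Dusp1 (-0.93). Of 9 receptor, chaperone and steroid activation genes, 2 were higher and 5 lower in the NAc, with Nr3c2 at 0.76 and Hsd11b1, which regenerates active corticosterone, at -1.58.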

How the data were processed

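Polyadenylated RNA of PFC and NAc punches from 48 mice was sequenced, giving 48 libraries per region. Reads were processed with FastQC 0.11.9, Trimmomatic 0.38 and HISAT2 2.2.0 on mouse build GRCm38, per the submitters' processing notes. How genes were counted, with which strand setting and annotation, is not given in the sources used here. As deposited by the authors, the files hold raw counts per gene for 19918 genes, with no normalization. Symbols and coordinates came from GENCODE M21, which named 19795 of these genes, and sequences from RefSeq.

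From the counts, edgeR 4.0.16 (R 4.3.3) was run with TMM scaling, its own low-count filter, a term for each of the 8 groups and a cohort term, in each region separately. Its quasi-likelihood test was used, and p-values were adjusted by Benjamini-Hochberg over all genes of a fit, 19292 in the PFC and 19684 in the NAc. The NAc was compared with the PFC in 1 fit with the animal as a block, because the animal number in the labels is shared by the 2 libraries of a mouse. Over 12842 genes, the deviations of the 2 libraries of a mouse from their group and cohort had a median correlation of 0.0987. Cohort is the batch named in the labels. Correlations used log2 CPM (prior count 2) minus group and cohort terms, with 100000 permutations, and group and cohort terms were refitted wherever animals were left out. Alternatives were RLE scaling, other filters, no cohort term, single cohorts, DESeq2 1.42.0, limma-voom 3.58.1 and leaving out each library. Scripts were tested on simulated data. The most alike libraries of any group still differed by more than sampling noise (chi-square per degree of freedom of at least 6.60), so each counted as 1 replicate.

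All 10 genes were named in every comparison, with at most 4 called genes of each other list and the 2 genes most like each member. The members and lists were chosen with earlier results of these data known. Removing animals 16 and 19 was chosen after their values were seen.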

Additional observations from a re-analysis of the deposited data

Results flagged for a closer look

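In 6 of 160 sets of libraries (a gene in 1 region and group) the highest or lowest library lay far from the rest of its group, by a gap rule that chance meets in about 1 in 20 groups. Mt2 was 30.8 CPM in the NAc of XY-Sry Stress animal 7, below the other 5 (37.7 to 41.5). Cdkn1a was 16.1 CPM in the PFC of XX Control animal 50 (others 18.5 to 18.8) and 5.87 in the NAc of XY-Sry Control animal 38 (others 8.22 to 9.15). Pdk4 was 16.6 CPM in the NAc of XY- Stress animal 41 (others 11.9 to 12.6). Plin4 was 0.347 CPM in the PFC of XXSry Control animal 27 (others 0.635 to 0.776). Errfi1 was 21.1 CPM in the NAc of XXSry Stress animal 12 (others 24.4 to 25.9). Each of these values belonged to a different animal. Plin4 of animals 16 and 19 did not meet the rule, because both lay in the same group.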

How the results depend on the processing

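Across the alternatives for scaling, filters, tools, cohort terms, single cohorts and leaving out animals 16 and 19, the number of members called in each comparison stayed as reported, except that DESeq2 called 1 member (Mt1) for stress within XY- in the PFC, where edgeR called 0. Leaving out each of the 48 libraries of a region in turn gave 0 to 0 members called in each of the 22 comparisons within a region. Without the replicate block, 9 members were called for NAc minus PFC and 0 for stress by region, so the pairing by animal changed no call. Of 11280 values of single genes and settings, 0 reversed among called ones, and 428 differed in sign where neither value was called. For the 5 correlations between regions that passed, r differed between single cohorts. It ran from 0.55 to 0.86 for Plin4, from 0.30 to 0.71 for Nfkbia and from 0.15 to 0.93 for Ddit4. For Mt2 it ran from 0.23 to 0.67, and for Klf9 from 0.07 to 0.51. The 37 correlated pairs of members became 19 without the 2 libraries farthest from the median of each first gene, and 24 without animals 16 and 19. Counts over all genes moved more. With DESeq2 against edgeR, in the PFC, XX minus XY called 356 genes against 217, testes minus ovaries 17 against 9, cohort 193 against 35, stress 2 against 0, stress within XY- 28 against 0, stress by gonad 6 against 0 and chromosome by gonad 1 against 0. In the NAc, DESeq2 called 19 against 2 for testes minus ovaries, 2 against 0 for stress and 1 against 0 for cohort, and limma-voom called 70 against 115 for XX minus XY and 1 against 2 for testes minus ovaries. Stress within XY- in the PFC called 3 genes with RLE scaling and 6 with the CPM filter, and stress in the PFC called 1 without the cohort term. With animals 16 and 19 left out, testes minus ovaries called 15 PFC genes and 5 NAc genes, stress 1 in each region, and cohort 1 in the PFC. Within cohorts 1, 2 and 3, testes minus ovaries called 0, 26 and 0 PFC genes, and 0 NAc genes in each cohort. Stress called 1, 2 and 3 PFC genes, and 1 NAc gene in each of cohorts 1 and 3. XX minus XY called 24 and 18 PFC genes in cohorts 2 and 3, and 47, 18 and 15 NAc genes in the 3 cohorts. In the PFC of cohort 1, XX minus XY called 170 genes. The cause of these changes was not tested, and a single cohort also holds fewer animals. Plin4 had as few as 22 counts in a library, which limits its precision, and its stress values turn on 2 animals. Stress in cohort 3 rests on 3 Control animals.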
